A study of Mus musculus with 8 samples.

Results

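Genes of intraflagellar transport and of the BBSome were followed in RNA from E11.5 mouse embryos, on 4 arrays of FAK mutants and 4 arrays of controls. The set holds 34 genes, chosen by symbol after earlier results on these arrays had put Rabl2 and Ift27 among the genes that were lower in mutants. Of the 34 genes, 32 had at least 1 probe set listed under their symbol alone, out of 18193 genes with such a probe set on the array. Arl6 and Arl13b were not listed, so their levels were not analysed here, and they enter the promoter counts only. The 32 genes had 52 probe sets, and each gene was read from its brightest probe set by mean intensity over the 8 arrays, with the others as a check. All 32 passed the filter on low values that left 13545 genes for testing.

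The FAK mutant arrays came from p75-sorted cells and from origins labelled LM, OFT and UM, and the control arrays from the same 4 origins, with 1 array per genotype and origin. Cells of the p75 pair were cranial neural crest cells sorted from head and thorax, and each array of that pair held RNA pooled from 3 embryos. What the abbreviations LM, OFT and UM stand for is not stated, and the age of those embryos is given by the series title. Neither the mutant allele and any Cre driver, nor the genotype of the controls, nor the strain, is given in the sources used here. FAK is a kinase that relays signals from integrins at sites where cells attach to matrix. No probe set was listed under its gene, Ptk2, so the targeted gene could not be used to check the genotype labels. Ngfr, which encodes p75 and so marks the sort, had an intensity of 1422 in the p75 mutant and 1043 in the p75 control, against 47.0 to 149 on the other 6 arrays. The p75 arrays also stood apart in the Gapdh control probe sets, where the signal at the 3′ end divided by that at the 5′ end was 4.91 in the p75 mutant and 2.82 in the p75 control, against 0.70 to 0.99 elsewhere. The same ratio for Actb did not set them apart, at 1.65 in the p75 mutant and 1.57 in the p75 control, against 1.42 to 1.94 elsewhere. The 5′ control probe set of 18S rRNA did set them apart. It read 8542 in the p75 mutant and 6083 in the p75 control, against 314 to 1228 elsewhere.

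The primary cilium is a microtubule-based antenna that most embryonic cells carry, and Hedgehog signals pass through it during the growth of face and heart. Large trains built of the IFT-B and IFT-A complexes carry cargo along it, outward on kinesin and back on a dynein. The BBSome, a coat-like complex, rides on these trains and takes membrane receptors out of the cilium. Small GTPases switch these steps: Rabl2 helps to send IFT-B trains into the cilium, Ift27 is a subunit of IFT-B that links to the BBSome, and Ift22 is another GTPase of IFT-B.

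Because Rabl2 and Ift27 were the genes of the set that differed most between mutant and control arrays, the 250 bases before their RefSeq start sites are shown here, 5′ to 3′ on the strand of the gene (GRCm38.p6). Capitals mark GTTGCC or its reverse complement GGCAAC, a half-site of the motif bound by RFX factors, which control many ciliary genes.
Rabl2, chr15:89591924-89592173, minus strand: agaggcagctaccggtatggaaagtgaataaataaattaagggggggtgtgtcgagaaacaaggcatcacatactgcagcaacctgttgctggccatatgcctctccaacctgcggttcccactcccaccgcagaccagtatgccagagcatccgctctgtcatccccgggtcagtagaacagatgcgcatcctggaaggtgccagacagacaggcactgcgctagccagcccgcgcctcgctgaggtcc
Ift27, chr15:78174082-78174331, minus strand: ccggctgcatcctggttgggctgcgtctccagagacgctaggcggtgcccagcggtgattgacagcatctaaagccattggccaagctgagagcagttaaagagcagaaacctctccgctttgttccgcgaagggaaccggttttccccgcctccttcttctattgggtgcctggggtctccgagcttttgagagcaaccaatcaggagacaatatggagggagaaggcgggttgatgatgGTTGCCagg
The Rabl2 stretch held no such match. The Ift27 stretch held 1, which ended 3 bases before the start site. Of the 30 genes of the set with a promoter in the RefSeq table, 7 held the letters on either strand in these 250 bases, which is 23.3%, against 11.8% of 27025 genes of all kinds and 12.3% of the 10884 tested genes with a promoter there. The matches of the other 6 genes are shown with up to 8 bases on each side.
Arl13b, chr16:62847208-62847229, minus strand: acgctccaGTTGCCtagttacc
Bbs7, chr3:36613497-36613518, minus strand: gcgccccgGTTGCCttggaaac
Ift140, chr17:25015969-25015990, plus strand: gttgtgacGGCAACctcgcgcc
Ift57, chr16:49699199-49699220, plus strand: cgggtctgGTTGCCgtggtgac
Kif3a, chr11:53567263-53567284, plus strand: ccgcaggcGTTGCCccagtcta
Traf3ip1, chr1:91494581-91494602, plus strand: gcgcgtccGTTGCCaaggccgc
The first match of each is shown. A match describes these letters only.

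Mutant against control asks which transcripts differ in FAK mutant embryos across the 4 origins. Rabl2 and Ift27 were lower in the mutant array of every pair, and all 4 mutant arrays lay below all 4 control arrays for both genes. These values chose the set, so they are described here and not tested. By limma, 0 of 13545 genes, or 0%, passed between mutant and control, and 410 genes had an unadjusted p under 0.05. In bulk RNA, fewer cells of a type and less RNA per cell cannot be told apart.

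Rabl2 had an intensity of 104 in the p75 mutant, 129 in LM, 81.4 in OFT and 123 in UM mutants, against 199 in the p75 control, 196 in LM, 183 in OFT and 272 in UM controls. The highest mutant array thus lay below the lowest control array. On the scale of log2(intensity + 32) the difference, mutant minus control, was -0.76 in p75, -0.50 in LM, -0.92 in OFT and -0.97 in UM, with a mean of -0.79 ± 0.21 (SD, n = 4 pairs). Rabl2 was read from 1 probe set, of the type shared by several transcripts of 1 gene, so no second probe set could be set beside it.

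Ift27 had an intensity of 186 in the p75 mutant, 201 in LM, 174 in OFT and 179 in UM mutants, against 279 in the p75 control, 426 in LM, 224 in OFT and 366 in UM controls. The mutant arrays were close to each other, at 185 ± 11.9, and the control arrays spread more widely, at 324 ± 89.8 (SD, n = 4 arrays each). The difference was -0.51 in p75, -0.98 in LM, -0.32 in OFT and -0.91 in UM, with a mean of -0.68 ± 0.32 (SD, n = 4 pairs). By its name this probe set is of the x type, which may cross-hybridize with other transcripts, and the other probe sets of Ift27 were therefore examined.

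The third probe set of Ift27, also of the x type, had an intensity of 39.0, 71.0, 47.1 and 58.0 in the p75, LM, OFT and UM mutants, against 87.7, 119, 71.7 and 75 in the matching controls. All 4 mutants again lay below all 4 controls, with a mean difference of -0.49 ± 0.22 (SD, n = 4 pairs). The remaining probe set, which is not of the x type, had an intensity of 96.5, 122, 91.7 and 132 in the p75, LM, OFT and UM mutants, against 139, 135, 116 and 162 in the controls. It was lower in every pair, but the mutants at 91.7 to 132 overlapped the controls at 116 to 162, and its mean difference was -0.26 ± 0.12 (SD, n = 4 pairs). The size of the Ift27 difference thus varied between its probe sets, and its sign was the same in all of them.

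**Figure D1:**
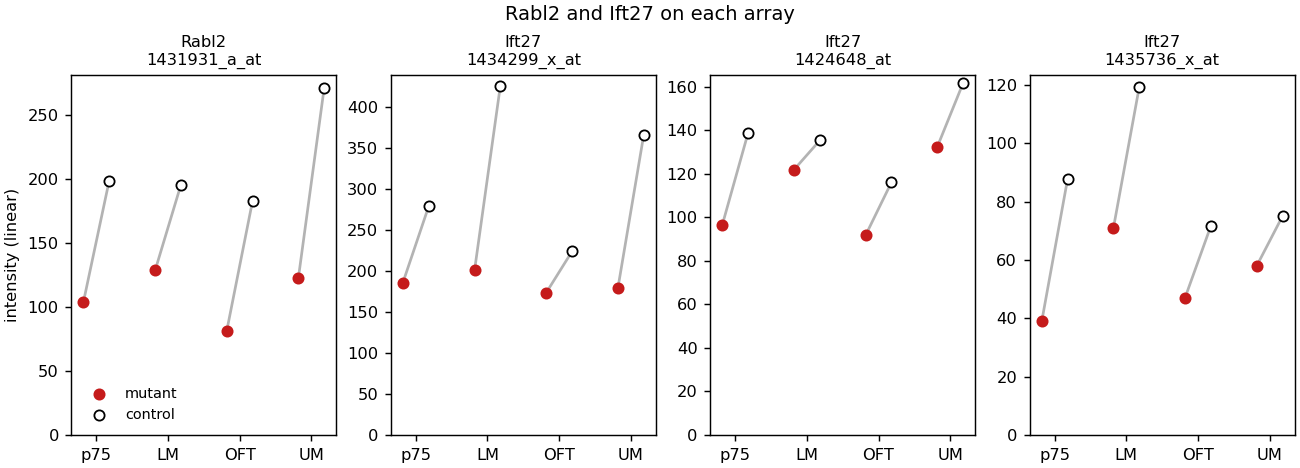
Intensity on a linear scale (y axis, from 0) of the Rabl2 probe set and the 3 Ift27 probe sets on each array, by origin (x axis). Filled red points are mutant arrays, open points control arrays, and grey lines join the pair of an origin; each red point lies below its open partner, and for Rabl2 the mutants at 81.4 to 129 lie below the controls at 183 to 272.

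Of all genes tested, 0.214% had their 4 mutant arrays below their 4 control arrays, and 0.17% had a mean difference of -0.5 or lower. Only Rabl2 and Ift27, 2 of 13545 genes or 0.0148%, met both, a combination and a limit of 0.5 chosen after the values were seen. Rabl2 and Ift27 are the genes of the set that lie on chromosome 15 in GRCm38.p6, as does Ptk2. Over chromosome 15 the median mutant minus control difference was -0.013 over its 521 tested genes and -0.013 over 12997 tested genes elsewhere. With Rabl2 and Ift27 counted, 3 of 521 tested genes on chromosome 15, or 0.576%, had all mutant arrays below all control arrays. Apart from Rabl2 and Ift27 it was 1 of 519, or 0.193%. On the other chromosomes it was 26 genes, or 0.200%. A mean difference of -0.5 or lower was found in 3 of 521 genes on chromosome 15, or 0.576%, with Rabl2 and Ift27 counted. Elsewhere 20 genes, or 0.154%, had one. Values over a whole chromosome cannot show differences limited to genes near Ptk2, and distance from Ptk2 was not examined. The part of position in these differences was not tested.

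Markers of other cells moved with genotype as well. Over 10 neuron markers the median difference was -0.63 in p75, 0.57 in LM, -0.77 in OFT and -0.61 in UM, and their summed intensity ran from 1114 to 4345 in mutants and from 653 to 7367 in controls. In the same order of pairs, each with 1 array per genotype, Rabl2 differed by -0.76, -0.50, -0.92 and -0.97. Ift27 differed by -0.51, -0.98, -0.32 and -0.91. All 3 skeletal muscle markers, Myod1, Myf5 and Myog, had positive mean differences, and their summed intensity was higher in the mutant array of every pair. In UM the sum over the 3 genes was low, at 48.8 in the mutant and 35.2 in the control, and 1 of them was lower in the mutant. Embryo sex was also unequal. Xist had an intensity of 2247 in the p75 mutant and 21.0 in the p75 control, against 4368 to 5032 on the other arrays. Eif2s3y, a gene of the Y chromosome, had an intensity of 151 in the OFT mutant and 6.20 in the OFT control. It read 140 in the p75 mutant and 386 in the p75 control, and 79.4 to 155 on the LM and UM arrays. The part of cell makeup and of sex in the Rabl2 and Ift27 values was not tested.

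The other 30 genes of the set differed less. Their mean differences ran from -0.30 to 0.16, with a median of -0.04, where the median over all tested genes was -0.01. In 27 of the 30 the sign changed between pairs. Of the 30 genes 2, or 6.67%, were lower in 4 of 4 pairs, near the 5.24% of all tested genes, and 1, or 3.33%, was higher in 4 of 4, near the 3.94% of all tested genes. These values come from the brightest probe sets. Of the 12 genes with several probe sets, Ift27 included, 8 had mean differences of both signs among their probe sets.

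The 2 further genes that were lower in every pair were Bbs7, a BBSome subunit, and Ift88, a core subunit of IFT-B known from the Oak Ridge polycystic kidney mouse. Bbs7 had an intensity of 69.6, 94.5, 66.8 and 79.5 in the p75, LM, OFT and UM mutants, against 104, 123, 78.9 and 106 in the controls. The genotypes overlapped, and the mean difference was -0.30 ± 0.10 (SD, n = 4 pairs). Its second probe set lay near background, at 0.566 to 19.1, and did not share the sign. Ift88 had an intensity of 174, 186, 118 and 159 in the mutants of the same order, against 190, 203, 137 and 180 in the controls. Its difference was small and even, at -0.13 ± 0.03 (SD, n = 4 pairs).

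The third GTPase measured was Ift22. It had an intensity of 148, 197, 171 and 222 in the p75, LM, OFT and UM mutants, against 143, 177, 165 and 206 in the controls. It was higher in every mutant, with a mean difference of 0.08 ± 0.04 (SD, n = 4 pairs), and the genotypes overlapped widely.

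The partners that Ift27 and Rabl2 are known to bind had mean differences nearer 0. Ift74 and Ift81, the paired coiled-coil subunits at the core of IFT-B on which RABL2 docks in human cells, had mean differences of -0.19 ± 0.31 and 0.05 ± 0.18 (SD, n = 4 pairs). Hspb11, also called Ift25, which forms a dimer with Ift27, had a mean difference of -0.03 ± 0.29, and Cep19, the centriolar partner of Rabl2, one of 0.06 ± 0.22 (SD, n = 4 pairs each). For each of these genes the spread between pairs was wider than the mean.

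By complex, the medians of the mean differences were -0.06 over 11 IFT-B genes, -0.07 over 5 IFT-A genes, -0.02 over 4 motor genes, -0.08 over 7 BBSome genes and 0.02 over the 2 chaperonin-like genes Bbs10 and Bbs12. Within IFT-B the differences ran from -0.19 to 0.16 and within the BBSome from -0.30 to 0.08. The widest spread between pairs was that of Bbs2, a BBSome subunit, which differed by -0.79 in p75 and by 0.30 in OFT, and of Ift172, a large peripheral subunit of IFT-B, which differed by -0.34 in OFT and 0.53 in LM. Dync2h1, the heavy chain of the retrograde dynein, differed by -0.51 in LM and 0.40 in UM.

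**Figure D2:**
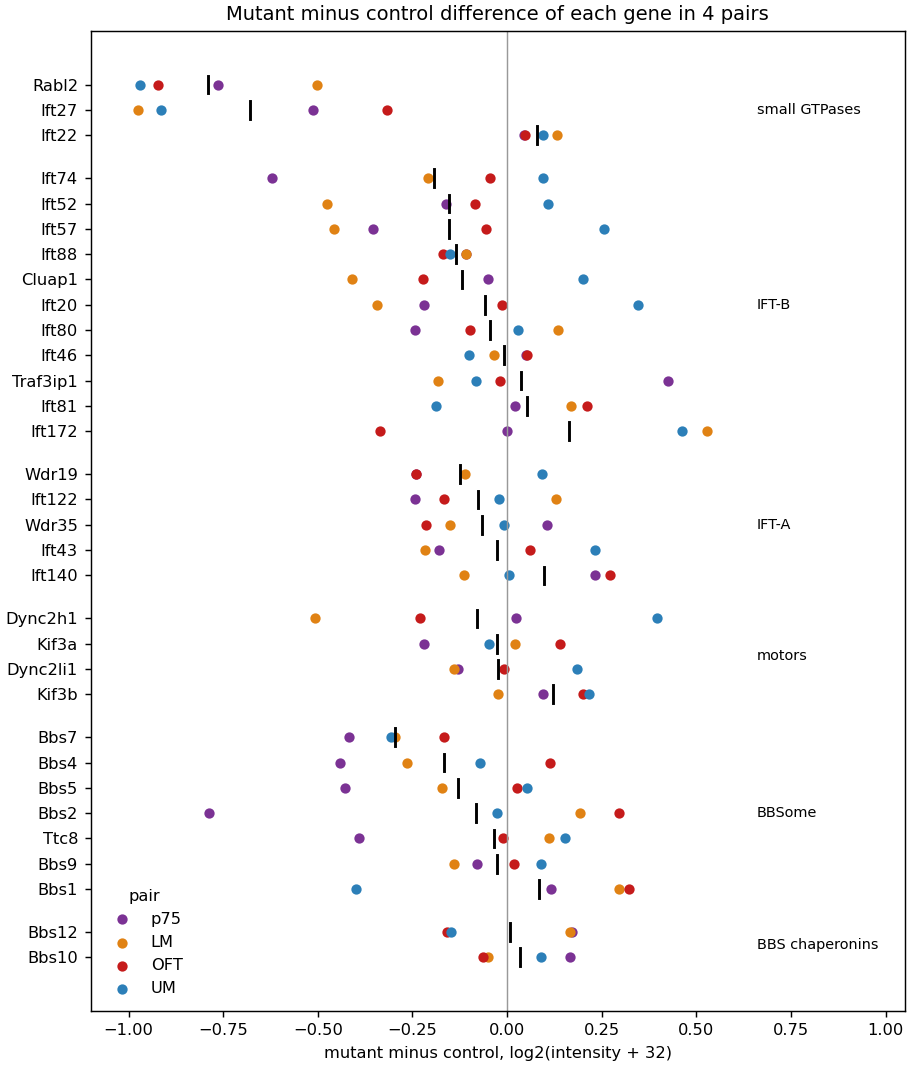
Mutant minus control difference on the log2(intensity + 32) scale (x axis) of each of the 32 genes (y axis), grouped by role. Coloured points are the 4 pairs and black bars their mean; Rabl2 and Ift27 lie left of 0 in all pairs with means of -0.79 and -0.68, while the means of the other 30 genes lie between -0.30 and 0.16.

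Other ciliary genes were set beside them in lists drawn up by function. The median mutant minus control difference was -0.05 over 17 further transport and BBSome partners, -0.01 over 18 transition zone genes, -0.05 over 18 basal body and centriole genes and -0.04 over 16 Hedgehog pathway genes. By pair, the Hedgehog median was -0.03 in p75, -0.03 in LM, -0.23 in OFT and -0.02 in UM. In the OFT pair 13 of the 16 Hedgehog genes were below 0, and the median over all tested genes was -0.05. Ptch1, the Hedgehog receptor gene that the pathway itself induces, differed by 0.00 ± 0.06, and Gli1, a transcription factor induced in the same way, by -0.12 ± 0.24 (SD, n = 4 pairs). Of 20 motile cilia genes with a probe set, 7 passed the filter, and Foxj1, the master factor of motile cilia, had an intensity of at most 18.7 on any array, below the filter level of 19.4.

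The differences between origins were not used to choose the set, and limma tested them over all 13545 genes with terms for origin and genotype. Each origin was then represented by its mutant and its control array, so the p-values rest on the spread between arrays that differ in genotype and not on replicate samples. The median range between the highest and lowest origin mean was 0.47 on the log2 scale over the 32 genes, against 0.62 over all tested genes. A range above 1 was reached by 1 of the 32 genes, or 3.13%, against 23.7% of all tested genes. Dync2h1 varied least, with origin means of 7.73 in p75, 7.71 in LM, 7.76 in OFT and 7.82 in UM.

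p75-sorted cells were compared with the average of the other origins, which addresses what distinguishes the sorted crest cells. Of the 32 genes 8 changed, 4 higher and 4 lower, which is 25%, against 47.3% of all tested genes. By direction the set had 12.5% higher and 12.5% lower, against 28.3% and 19% of all genes. The median over the set was -0.06, against 0.07 over all genes.

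Ift140, a core subunit of IFT-A, the complex tied to return transport, had the largest increase in the set. It had an intensity of 510 in the p75 mutant and 429 in the p75 control, against 184 to 237 on the other 6 arrays. Both p75 arrays lay far above the rest, and the log2 difference was 1.02 ± 0.15 (limma's moderated SE, 2 arrays in each origin), at an adjusted p = 1.7e-04. Ift81 had an intensity of 606 in the p75 mutant and 597 in the p75 control, against 345 to 459 elsewhere, a log2 difference of 0.56 ± 0.15 with adjusted p = 0.0076 by limma. A second bright probe set of Ift81 pointed the same way, at 426 and 367 in the p75 mutant and control against 184 to 259 elsewhere.

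Ift172 also rose, by 0.57 ± 0.18 with adjusted p = 0.022 by limma, with 184 in the p75 mutant and 184 in the p75 control against 77.7 to 161 elsewhere. Cluap1, the IFT-B subunit also called Ift38, rose by 0.41 ± 0.16 with adjusted p = 0.049 by limma. Its level in the LM control, 263, was above both p75 arrays, at 236 and 245. Nearest to the threshold without passing it were Ift122, a subunit of IFT-A, at 0.37 ± 0.15 with adjusted p = 0.053 by limma, and Ift22 at -0.32 ± 0.14 with adjusted p = 0.080 by limma.

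Bbs5, a BBSome subunit that binds membrane lipids, had the largest decrease. It had an intensity of 41.5 in the p75 mutant and 66.9 in the p75 control, against 120 to 141 elsewhere. It fell by 0.93 ± 0.15 with adjusted p = 3.9e-04 by limma, and both p75 arrays lay below all others. Ift74, in contrast to its partner Ift81, fell by 0.73 ± 0.16 with adjusted p = 0.0032 by limma. Its intensity was 313 in the p75 mutant and 497 in the p75 control, against 505 to 855 elsewhere, so the p75 control lay just below the OFT mutant.

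Ift20, a subunit of IFT-B that also resides at the Golgi, had an intensity of 178 in the p75 mutant and 212 in the p75 control, against 286 to 405 elsewhere. It fell by 0.72 ± 0.16 with adjusted p = 0.0032 by limma. Bbs12, a chaperonin-like protein of BBSome assembly, fell by 0.54 ± 0.15 with adjusted p = 0.010 by limma. The Bbs12 intensity was 65.8 in the p75 mutant and 54.9 in the p75 control, against 84.5 to 116 elsewhere. Rabl2 and Ift27 did not pass, at -0.07 ± 0.15 and -0.10 ± 0.17. Of these 8 genes Ift140, Bbs5 and Bbs12 passed without the p75 mutant array, and Ift140, Bbs5, Ift20 and Ift74 passed without the p75 control array. Leaving out the OFT mutant array ended the calls of Ift172 and Cluap1, with an adjusted p of 0.060 and 0.11 by limma, and Cluap1 also without the LM mutant, OFT control or UM control array, with 0.099, 0.074 and 0.10.

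**Figure D3:**
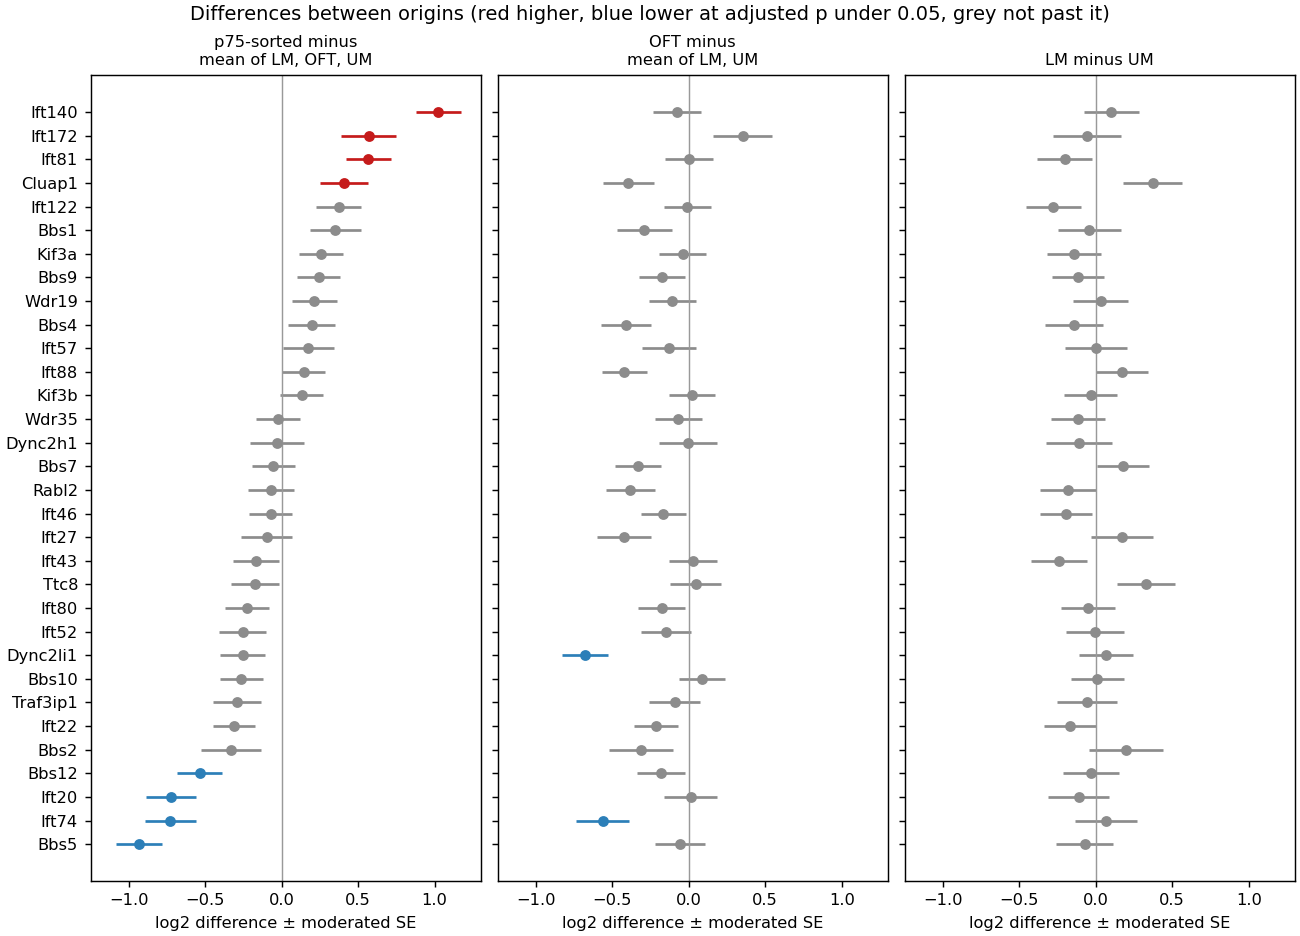
Log2 difference (x axis) with the moderated SE of limma as bars for each of the 32 genes (y axis) in the 3 comparisons between origins. Red marks 4 genes higher and blue 4 genes lower in p75-sorted cells, led by Ift140 at 1.02 and Bbs5 at -0.93, and blue marks 2 genes lower in OFT; no gene is coloured for LM against UM.

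Probe sets of the same gene did not always give the same direction in p75-sorted cells. Of the 12 genes with several probe sets, 6 had probe sets of both signs. Kif3b, a motor subunit of the outward kinesin, differed by 0.13 with its brightest probe set, by 0.59 with the second brightest, and by -0.98 and -0.70 with the other two. One of those read 12.2 in the p75 mutant and 12.2 in the p75 control, against 39.1 to 68.3 elsewhere. Ift80, an IFT-B subunit linked to skeletal disease, differed by -0.23 with its brightest probe set and by -1.37 with the other, which read 55.2 and 56.1 in the p75 mutant and control against 113 to 276 elsewhere. Wdr19, an IFT-A subunit also called Ift144, differed by 0.21 and by -0.89. Of the 20 dimmer probe sets 13 were lower in p75-sorted cells, 6 of them by more than 0.5 on the log2 scale. The same shares over all dimmer probe sets of the array were not computed, so these counts cannot be called particular to the set. Over the brightest probe sets 19 of the 32 genes were lower, and 6078 of all 13545 tested genes. The raised Gapdh ratio of both p75 arrays, with an Actb ratio within the range of the others, stands beside these values; its part in them was not tested, and the sort and any difference in RNA handling cannot be told apart.

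**Figure D4:**
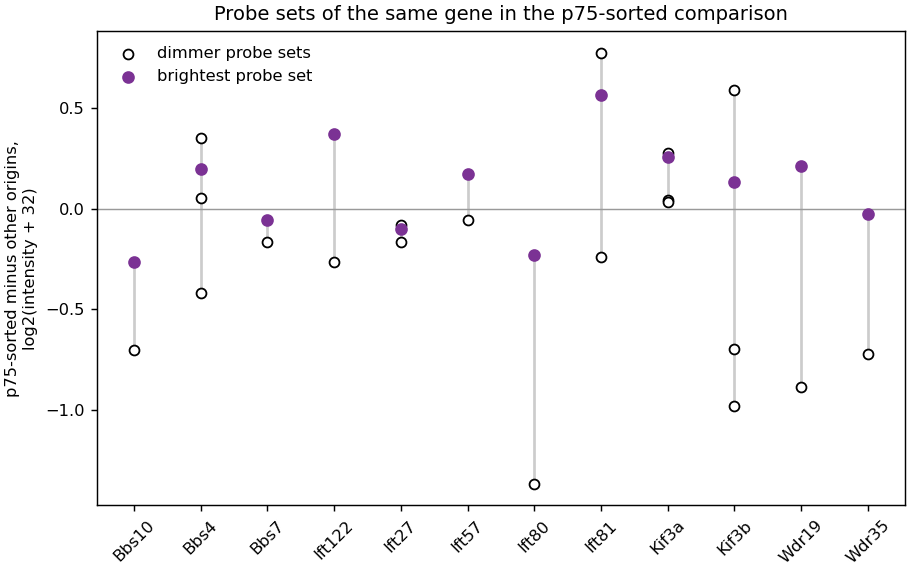
Difference of the p75 arrays from the mean of the other 6 arrays on the log2(intensity + 32) scale (y axis) for each probe set of the 12 genes with several probe sets (x axis). Purple points are the brightest probe sets and open points the dimmer ones, joined by grey lines per gene; Ift80 spans -1.37 to -0.23 and Kif3b -0.98 to 0.59.

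Cell types differed strongly in the same comparison. All 5 crest markers measured, Sox10 and Ngfr among them, and 9 of 10 neuron markers rose in p75-sorted cells, and 5 of 6 facial mesenchyme markers fell. Of 3 skeletal muscle markers 2 rose and 0 fell, and of 5 cardiac muscle markers 1 rose and 3 fell. Further ciliary genes went both ways too, in a comparison where 28.3% of all tested genes rose and 19% fell. Of 17 further transport and BBSome partners 7 rose and 3 fell. Among them Tulp3, an adaptor that brings receptors onto IFT-A, rose by 0.93 and Dynlrb1, a dynein light chain shared with other dyneins, fell by 2.17. Of 18 transition zone genes 3 rose and 6 fell, with Ahi1 at 0.96 and Tmem216 at -1.04. Of 18 basal body and centriole genes 4 rose and 5 fell, with Fbf1, a component of the transition fibres, at 1.58 and Ccp110, which caps centrioles, at -1.0. Of 16 Hedgehog genes 5 rose and 3 fell, with Smo, the signal transducer that enters the cilium, at 0.80 and Shh, the ligand, at -1.59. The adjusted p of each gene named in this paragraph was below the threshold of 0.05 by limma.

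OFT was then compared with the average of LM and UM, the other unsorted origins. In the set 2 of 32 genes, or 6.25%, fell and 0 rose, against 15.2% of all tested genes called, 3.88% lower and 11.3% higher. At an unadjusted p under 0.05 by limma 8 of the 32 genes were lower and 0 higher. Of all 13545 tested genes, 1358 were lower and 2514 higher at that level. The median over the set was -0.14, with 26 of the 32 genes below 0. Over all tested genes the median was 0.01, with 6531 of 13545 below 0.

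Dync2li1, the light intermediate chain of the retrograde dynein, had an intensity of 206 in the OFT mutant and 207 in the OFT control, against 318 to 378 on the LM and UM arrays. The OFT arrays lay well below the others, and it fell by 0.68 ± 0.15 at an adjusted p = 0.010 by limma (moderated SE, 2 arrays in each origin). Ift74 had an intensity of 505 in the OFT mutant and 522 in the OFT control, against 729 to 855 in LM and UM, and fell by 0.56 ± 0.17 with adjusted p = 0.048 by limma. Next came Ift88 at -0.42 ± 0.15 with adjusted p = 0.075 and Bbs4, a BBSome subunit, at -0.41 ± 0.16 with adjusted p = 0.12, neither of which passed by limma. Leaving out the OFT mutant array ended both calls, with an adjusted p by limma of 0.10 for Dync2li1 and 0.16 for Ift74, and so did leaving out the OFT control array, with 0.17 and 0.47. Ift74 also missed the threshold without the LM control, LM mutant or UM mutant array, with 0.070, 0.060 and 0.13 by limma.

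Of 16 Hedgehog genes 5 rose in OFT and 2 fell, with Shh at 1.74 ± 0.17, its inhibitor Hhip at 1.44 ± 0.18 and Ptch1 at 0.97 ± 0.15, all past the threshold by limma. Of 17 further transport partners 0 passed by limma, with 1 lower at an unadjusted p under 0.05, and of 18 transition zone genes 2 fell. Of all tested genes 11.3% rose and 3.88% fell in this comparison. Markers of other cells moved in OFT as well. All 5 cardiac muscle markers, 4 of 4 endothelium markers and 6 of 10 neuron markers rose, and 5 of 6 facial mesenchyme markers fell, by limma. The part of this cell makeup in the transport genes was not tested.

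LM was last compared with UM. Of the 32 genes 0 passed by limma, against 1.56% of all tested genes, 0.738% higher and 0.819% lower, and 0 had an unadjusted p under 0.05, against 8.48% of all tested genes. Differences ran from -0.28 for Ift122 to 0.37 for Cluap1, and the smallest adjusted p in the set was 0.70 by limma. In the Hedgehog list Shh rose by 0.99 ± 0.20, and 0 genes of the other ciliary lists passed by limma, with 1 transport partner and 1 transition zone gene higher at an unadjusted p under 0.05.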

How the data were processed

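Values were read from the deposited table of 45101 probe sets on 8 arrays. They are intensities on a linear scale as deposited; how they were computed from the scans the labels do not say. The values show the authors' scaling: the mean between the 2nd and 98th percentiles was 150.0 on every array. The platform's annotation gave 1 gene for 34945 probe sets; the 932 with several genes were left out. Genes were tested where 2 or more arrays exceeded an intensity of 19.4, the 40th percentile. Values were used as log2(intensity + 32), which understates differences of dim genes, with no further scaling. The model was fitted on 13545 genes with limma 3.58.1 in R 4.3.3 (3 residual degrees of freedom, prior 9.06), with Benjamini-Hochberg adjustment over all genes and a threshold of 0.05, and was checked on simulated data. The number of arrays limits the precision.

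The genes of the set, the further lists and the markers were chosen with earlier results of these data known. Every gene of the set could be named; of the others up to 4 per list and comparison with the largest difference, and genes on which a result turned, chosen after their values were seen. Promoter sequences are from RefSeq, GRCm38.p6. Alternatives were another pseudocount (1 or 128), quantile normalization, the mean of all probe sets, no filter, an intensity trend, no genotype term, no p75 arrays, and leaving out each array or pair.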

Additional observations from a re-analysis of the deposited data

Results flagged for a closer look

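The median mutant minus control difference over the 32 genes did not have the same sign in every origin. It was -0.15 in p75, -0.13 in LM and -0.031 in OFT, and 0.041 in UM. With 1 pair per origin the difference between origins was not tested. Over all tested genes the medians were -0.02 in p75, -0.04 in LM, -0.05 in OFT and 0.04 in UM.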

How the results depend on the processing

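In p75-sorted cells the number of genes of the set that were higher, 4 in the reported analysis, was 2 with a pseudocount of 1. The share of all tested genes that were higher went from 28.3% to 22.7%. The number lower, also 4, was 9 with the mean of all probe sets. The share of all tested genes that were lower went from 19.0% to 24.1%. Leaving out a single array leaves 1 array in its origin. Fewer genes of the set then passed in some fits, and the share of all tested genes changed too. The log2 difference then ran from 0.93 to 1.11 for Ift140 and from -1.01 to -0.44 for Ift74. Ift140 and Bbs5 passed under all 15 alternatives, and Cluap1 missed the threshold under 9 of them. In OFT the number lower, 2 in the reported analysis, was 0 with a pseudocount of 1, 4 with the mean of all probe sets and 1 without a filter on low values. The share of all tested genes lower in OFT, 3.88% in the reported analysis, was 1.64%, 6.11% and 2.28% in the same order. With single arrays left out, fewer genes of the set passed in some fits. The log2 difference then ran from -0.75 to -0.61 for Dync2li1 and from -0.66 to -0.46 for Ift74. Counts for LM against UM, and the 0 genes higher in OFT, were the same under all 16 alternatives. The median mutant minus control difference over the set ranged from -0.10 to -0.02 when single pairs were left out. For Rabl2 the mean difference was -0.52 with the larger pseudocount and -0.96 with a pseudocount of 1, and for Ift27 it was -0.47 with the mean of its probe sets. No paired analysis was possible beyond the origin term because each origin has 1 array per genotype, all with the same replicate number, so the groups share fewer than 2 numbers. The causes of these changes were not tested.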
